A study of Mus musculus with 52 samples.

Results

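RNA-seq of mouse testes was used to follow 10 genes whose proteins build the acrosome of sperm or act at the sperm surface when sperm and egg meet: Acr, Acrbp, Acrv1, Spaca7, Zpbp, Zpbp2, Spaca1, Spaca3, Spam1 and Izumo1. They were chosen by gene name, and all 10 were found among the 34865 genes of the testes table. The question was whether transcripts of these genes differed between testes with and without the Tug1 locus, which encodes a long noncoding RNA. Testes came from 4 wild-type mice, 4 Tug1-/- mice and 3 rescue mice, all on a mixed C57BL/6J and 129S6 background. In Tug1-/- mice (allele Tug1_tm1.1Vlcg) a lacZ cassette stood in place of the gene body, and the promoter and first exon were left. The labels of the Tug1-/- and rescue testes also list Neo beside LacZ, while those of the wild type say no Neo; per the study's methods the neomycin cassette had been removed from the colony. Rescue mice were Tug1-/-, carried a random-insertion transgene tg(Tug1) of 1 Tug1 cDNA isoform together with CAGs-rtTA3, an activator under a broadly active promoter, and were fed doxycycline. Ages were not given in the labels. To show where else the genes were expressed, means of spleen, liver, heart, eyes and embryonic fibroblasts (MEFs), with 3 samples per genotype, and of prostate, with 3 wild-type and 2 Tug1-/- samples, were read beside them.

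Each value below is the authors' mean over a group in TPM, a unit in which reads are divided by gene length and scaled to the same total in every sample, so that levels of different genes can be compared. Single libraries were not analysed here, so a group mean carries no SD and the depth of each library is unknown. Whether a difference exceeded the spread between mice could not be tested from the means alone, and the authors' own test results were not used. Differences are therefore given as sizes, in percent or as the log2 ratio of mean TPM + 1, and are read against the same ratio over all genes. The 3 comparisons share groups and are not independent of each other. In bulk tissue, fewer cells of a type and less RNA per cell cannot be told apart.

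The acrosome is a vesicle derived from the Golgi that spreads as a cap over the nucleus of the maturing spermatid. At fertilization its membrane fuses with the plasma membrane of the sperm, enzymes and matrix proteins are released, and surface proteins needed for binding to and fusion with the egg are exposed. Many of its genes are transcribed in late spermatocytes and round spermatids, well before the protamines replace histones and the nucleus condenses. Tug1 itself (chr11:3639785-3649673, minus strand, GRCm38) stood at 40.1 TPM in wild-type, 0.885 TPM in Tug1-/- and 1.60 TPM in rescue testes, so that Tug1 was low in both mutant groups, as their labels state for the deletion, and little was added in the rescue group.

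The 10 genes were abundant in testes and their means were nearly the same in all 3 groups. Together they made up 0.229% of all TPM in wild-type, 0.234% in Tug1-/- and 0.234% in rescue testes. Each of the 10 stood above at least 88.3% of the genes of 1 TPM or more in every group. Between wild-type and Tug1-/- testes the largest difference was 5.84% (Spaca1), and in the other comparisons the widest were 8.03% (Acr, rescue against wild type) and -7.79% (Spam1, rescue against Tug1-/-), of which the latter is the wider on the log2 scale (-0.12 against 0.11). None of the 10 passed a 1.2-fold difference in either direction in any comparison, and none passed 1.1-fold.

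**Figure D1:**
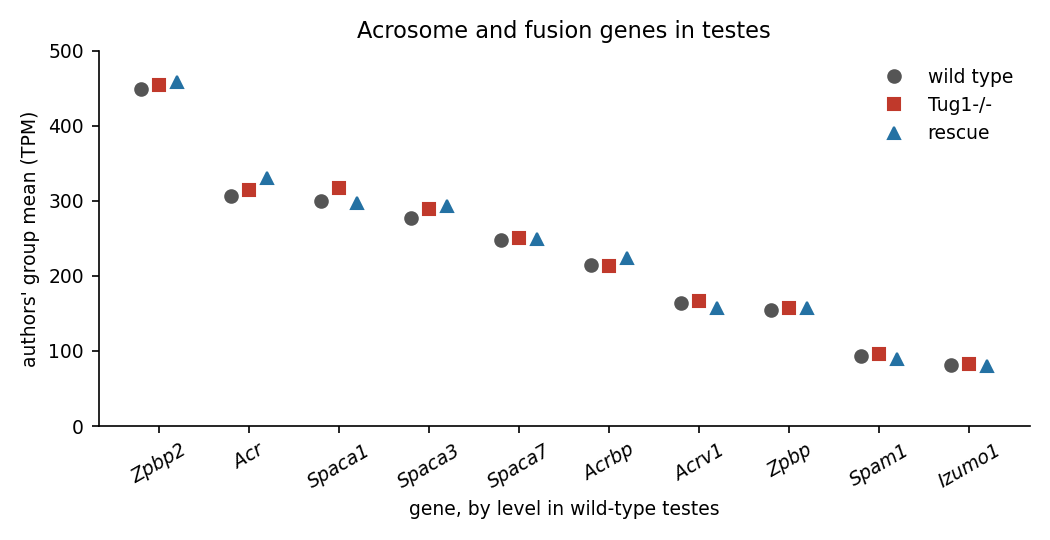
Mean expression (authors' group mean, TPM, linear axis from 0) of the 10 genes in wild-type, Tug1-/- and rescue testes, ordered by the wild-type level. Each symbol is 1 group mean without an error bar, and the 3 symbols of a gene lie close together, from 449, 455 and 459 TPM for Zpbp2 down to 81.1, 82.3 and 79.6 TPM for Izumo1.

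Of the 10 genes, 6 encode proteins of the acrosomal matrix or the protease precursor stored in it. Acr (chr15:89568326-89574585, plus strand) encodes proacrosin, the precursor of a serine protease. Its mean was 306 TPM in wild-type, 315 TPM in Tug1-/- and 331 TPM in rescue testes, 2.85% higher in Tug1-/- and 8.03% higher in rescue than in wild type. Acrbp (chr6:125049689-125063267, plus strand), whose protein binds proacrosin and controls its storage and activation, stood at 214, 213 and 224 TPM in the same order of groups. It was the 1 gene of the 10 with a lower mean in Tug1-/- than in wild-type testes (log2 ratio -0.01). The Acr level was 1.43 times that of Acrbp in wild-type, 1.48 times in Tug1-/- and 1.47 times in rescue testes, a ratio of group means that a scaling common to the whole group leaves as it is.

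Zpbp2 (chr11:98551097-98558665, plus strand) and Zpbp (chr11:11279626-11462408, minus strand) encode related acrosomal proteins that bind the zona pellucida and shape the acrosome. Zpbp2 was the highest of the 10 in every group, with 449 TPM in wild-type, 455 TPM in Tug1-/- and 459 TPM in rescue testes. Zpbp stood at 155, 157 and 157 TPM. The level of Zpbp2 thus was 2.90, 2.89 and 2.92 times that of Zpbp in the 3 groups. Acrv1 (chr9:36693220-36698843, plus strand), which encodes the matrix protein SP-10, had 163 TPM in wild-type, 167 TPM in Tug1-/- and 157 TPM in rescue testes. Spaca7 (chr8:12573029-12600744, plus strand), whose protein is released when the acrosome opens, was the flattest of the 10, with 248, 249.9 and 249 TPM.

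The other 4 genes encode proteins of the sperm or acrosomal membranes, or proteins that act at the egg. Spaca1 (chr4:34024874-34050191, minus strand), a membrane protein needed for the acrosome to form, had 299 TPM in wild-type, 317 TPM in Tug1-/- and 297 TPM in rescue testes. Spaca3 (chr11:80858365-80867814, plus strand), a lysozyme-like protein, had 277, 289.6 and 293 TPM. For Spaca1 the rescue mean lay next to the wild-type mean, whereas for Spaca3 it lay next to the Tug1-/- mean. Spam1 (chr6:24791188-24801048, plus strand), the hyaluronidase PH-20 that opens the cumulus matrix, had 92.8 TPM in wild-type, 96.6 TPM in Tug1-/- and 89.1 TPM in rescue testes. Izumo1 (chr7:45621811-45628823, plus strand), the sperm protein that binds JUNO on the egg before fusion, was the lowest of the 10 with 81.1, 82.3 and 79.6 TPM. Summed over these 4 genes, the Tug1-/- level was 4.70% above and the rescue level 1.18% above the wild-type level, against 1.40% and 2.68% for the 6 matrix genes.

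The order of the 10 levels was nearly fixed. It was Zpbp2, Acr, Spaca1, Spaca3, Spaca7, Acrbp, Acrv1, Zpbp, Spam1 and Izumo1 in wild-type and rescue testes, and in Tug1-/- testes Spaca1 stood ahead of Acr by less than 2 TPM. Neighbours such as Acr and Spaca1, or Acrv1 and Zpbp, were so close that their order cannot be told without the spread between mice. The rescue mean fell outside the interval between the wild-type and Tug1-/- means for 8 of the 10 genes, above both for 4 (Zpbp2, Acr, Spaca3 and Acrbp) and below both for 4 (Spaca1, Acrv1, Spam1 and Izumo1). The means thus had no shared order of the 3 groups among the 10. The share of all genes with a rescue mean outside that interval was not counted, so the 8 of 10 describes these means alone.

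Set against all genes, the differences between Tug1-/- and wild-type testes were small. Of the 22378 genes with at least 1 TPM in wild-type or Tug1-/- testes, 7.29% passed 1.2-fold higher and 5.93% passed 1.2-fold lower in Tug1-/-, compared with 0 of the 10 in each direction. Since all 10 were abundant, the nearer background is the 4.78% of genes of at least 50 TPM that passed in either direction, and 0 of 10 is close to that share. The log2 ratios of the 10 ran from -0.01 (Acrbp) to 0.08 (Spaca1), with a median of 0.027, next to a median of 0.029 over all these genes. A mean higher in Tug1-/- than in wild type was seen for 9 of the 10, but also for 61.7% of all genes, and when the ratios were centred on the median of all genes only 5 of the 10 stayed higher. From the 5th to the 95th percentile all genes spanned -0.30 to 0.33, and the 3790 genes of at least 50 TPM, a minimum chosen after the data were seen to match the level of the 10, spanned -0.11 to 0.16. All 10 lay within the narrower interval. A ratio no further from 0 than that of Spaca1 was found for 50.7% of all genes and for 74.5% of those of at least 50 TPM.

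For rescue over Tug1-/- testes, 3.47% of 22180 genes passed 1.2-fold higher and 6.79% passed 1.2-fold lower, again with 0 of the 10 in either direction. Among genes of at least 50 TPM 1.82% passed in either direction, and 0 of 10 is close to that share. The ratios of the 10 ran from -0.12 (Spam1) to 0.07 (Acrbp), with a median of -0.0053. A ratio no further from 0 than that of Spam1 was found for 67.4% of all genes. It was found for 87.0% of those of at least 50 TPM, whose 5th percentile was -0.13. A higher mean in rescue testes was found for 4 of the 10 (Acr, Acrbp, Spaca3 and Zpbp2), against 52.5% of all genes. For rescue over wild type, 8.02% of 22393 genes passed 1.2-fold higher and 8.92% lower, and 0 of the 10 did. The share among genes of at least 50 TPM was 5.87% in either direction, to which 0 of 10 is again close. The ratios of the 10 ran from -0.06 (Spam1) to 0.11 (Acr) with a median of 0.0098. A ratio no further from 0 than that of Acr was found for 52.1% of all genes and 71.0% of those of at least 50 TPM. Of the 10, 6 had the higher mean in rescue, against 59.9% of all genes. Some ratios of the 10 were as small as 0.0025 (Spaca7), so that the counts of genes with a higher mean are a description of the means alone.

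**Figure D2:**
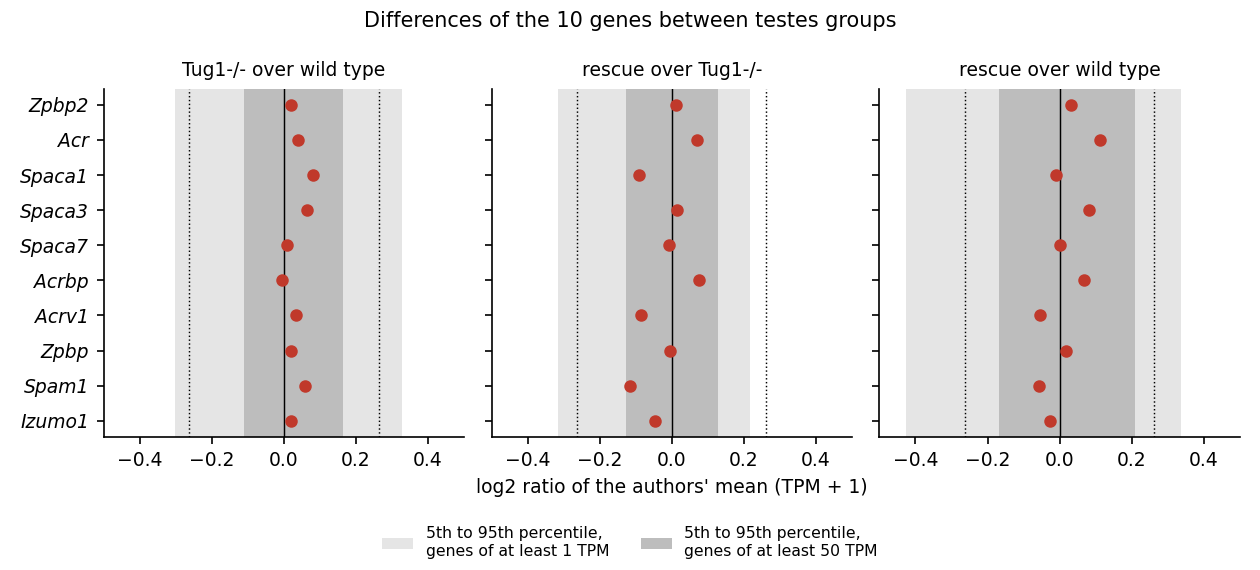
Log2 ratio of the authors' mean (TPM + 1) for each of the 10 genes (points) in the 3 testes comparisons, with the 5th to 95th percentile of all genes of at least 1 TPM (light band) and at least 50 TPM (dark band), and 1.2-fold as dotted lines. All points lie within the dark band, from -0.12 for Spam1 (rescue over Tug1-/-) to 0.11 for Acr (rescue over wild type).

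Other genes of the same structures likewise stayed within 1.2-fold between wild-type and Tug1-/- testes. The 49 further genes were in 3 lists, 14 for assembly of the acrosome, 19 for its contents and 16 for adhesion and fusion. The list of contents also holds surface proteins, among them Pkdrej and Tex101, which are described below. All 49 had at least 1 TPM and 0 passed in either direction, against 13.2% of all genes and 4.78% of those of at least 50 TPM. The median log2 ratio was -0.0050 for the assembly genes, 0.038 for the content genes and 0.018 for the adhesion and fusion genes. Their summed level was 18174 TPM in wild-type, 18216 TPM in Tug1-/- and 18019 TPM in rescue testes. The widest differences, named after their values were seen, were those of Gopc, a Golgi protein needed for vesicle fusion in acrosome formation, with 13.6 TPM in wild-type testes against 11.6 TPM (log2 ratio -0.22), and of the receptor-like Pkdrej with 40.8 and 36.7 TPM (-0.15). The genes that, like Izumo1, are needed for fusion included Spaca6 with 21.7 and 21.0 TPM, Tmem95 with 47.4 and 47.2 TPM, and Llcfc1 with 670 and 681 TPM.

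In rescue against Tug1-/- testes 0 of the 49 passed 1.2-fold, against 10.3% of all genes and 1.82% of those of at least 50 TPM. In rescue against wild-type testes 1 of the 49 did, against 16.9% of all genes and 5.87% of those of at least 50 TPM, and it too is named after its value was seen. This was Tex101, a GPI-anchored germ cell protein, with 227 TPM in wild-type, 241 TPM in Tug1-/- and 282 TPM in rescue testes (log2 ratio of rescue over wild type 0.31). Cylc2, a cylicin of the sperm head cytoskeleton, went the other way with 452, 425 and 381 TPM (-0.25). Adam6a and Adam6b, and Adam1a and Adam1b, are close copies. Only uniquely mapped reads were counted, so reads that match both copies may be missing and their single values are uncertain.

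Transcriptional regulators of the spermatid program were also measured. Of 8 such genes 0 passed 1.2-fold in any of the 3 comparisons, where 4.78%, 1.82% and 5.87% of genes of at least 50 TPM did, so that the count is near the background. Crem, the activator of many postmeiotic genes, had 100.4 TPM in wild-type, 102 TPM in Tug1-/- and 103 TPM in rescue testes. Rfx2 had 364, 364 and 389 TPM, and Sox30 had 196, 202 and 207 TPM. The log2 ratios of the 8 ran from -0.05 (Ovol1) to 0.14 (Taf7l) for Tug1-/- over wild type. They ran from -0.13 (Fhl5) to 0.19 (Ovol1) for rescue over Tug1-/-, and from -0.08 (Fhl5) to 0.22 (Taf7l) for rescue over wild type. Ovol1 had 9.81 TPM in wild-type testes, below the 50 TPM of the background given.

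Markers of germ cell stages differed in direction by stage, with sizes under 1.2-fold for spermatocytes and spermatids. Round spermatid markers (8 genes) had a median log2 ratio of 0.027 for Tug1-/- over wild type, beside 0.027 for the 10, but their summed level went the other way, with 4407 TPM in wild-type, 4256 TPM in Tug1-/- and 4198 TPM in rescue testes. Much of that sum is Gsg1, with 2496, 2326 and 2283 TPM. Spermatocyte markers (8 genes) had 0.090, with all 8 higher in Tug1-/-, against 61.7% of all genes. For rescue over wild type they had 0.142, with all 8 higher, against 59.9% of all genes. Spermatogonial markers (8 genes) had a median of 0.086 with 6 of 8 higher, against 61.7% of all genes. Gfra1, a receptor subunit of the stem cells, was past 1.2-fold lower, as were 5.93% of all genes, with 11.1 TPM in wild type against 3.84 TPM. For rescue over wild type the spermatogonial median was 0.206. In that comparison 2 of the 8 passed higher and 1 lower, against 8.02% and 8.92% of all genes. Elongating spermatid markers had -0.11, with 9 of 10 lower in Tug1-/-, where 61.7% of all genes were higher. For rescue over wild type they had -0.12, with 10 of 10 lower, where 59.9% of all genes were higher. Of these markers 0 passed 1.2-fold in the 2 comparisons, against 4.78% and 5.87% of genes of at least 50 TPM. Prm2, a protamine, for example had 12768, 11663 and 11685 TPM in wild-type, Tug1-/- and rescue testes. The summed level of the elongating spermatid markers was 62799, 59216 and 57818 TPM, a difference of -5.71% between Tug1-/- and wild-type testes, while the sum of the 10 acrosome and fusion genes was 2.48% higher in Tug1-/-. Whether the lists differ could not be tested without single libraries.

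Somatic markers showed larger differences. In Tug1-/- over wild-type testes, 7 of 10 Sertoli cell markers, 6 of 7 Leydig cell markers, 5 of 5 peritubular and smooth muscle markers and 4 of 6 macrophage markers passed 1.2-fold higher, against 7.29% of all genes, with medians of 0.37, 0.54, 0.45 and 0.30. In the same comparison the 3 endothelial markers had a median of 0.21, and 1 of them passed higher. In rescue over Tug1-/- testes 2 Sertoli and 2 macrophage markers passed higher, against 3.47% of all genes, while 3 Leydig and 3 peritubular and smooth muscle markers passed lower, against 6.79%, with all 5 of the latter list below 0. In rescue over wild type, 9 of 10 Sertoli, 4 of 7 Leydig, 4 of 6 macrophage and 0 of 5 peritubular and smooth muscle markers passed higher, against 8.02% of all genes. The 4 epididymal markers summed to 1622 TPM in wild-type, 808 TPM in Tug1-/- and 8.29 TPM in rescue testes. They did not all go the same way: Crisp1 had 427, 760.5 and 0.348 TPM in the 3 groups, whereas Lcn5 had 680.0, 0.0155 and 0.132 TPM, Adam7 had 326, 39.8 and 0.0193 TPM, and Rnase10 had 190 TPM in wild-type and under 8 TPM in both mutant groups. The part of these differences in the values of the 10 genes was not tested.

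**Figure D3:**
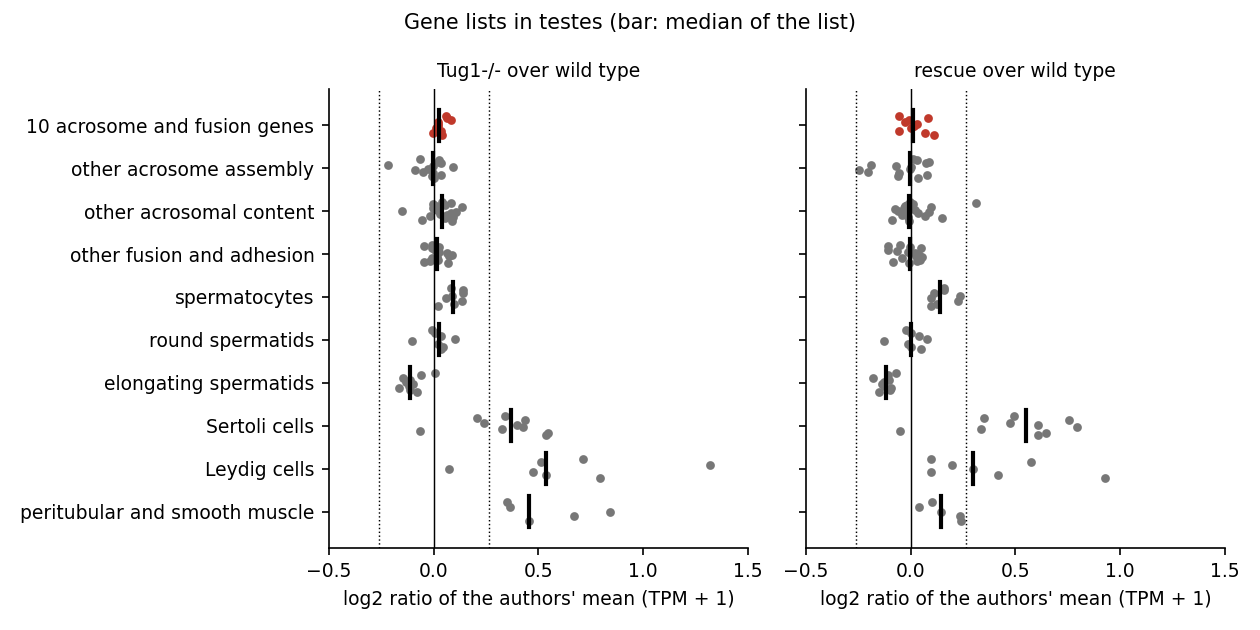
Log2 ratio of the authors' mean (TPM + 1) per gene (points) and list median (bars) for the 10 acrosome and fusion genes, 3 lists of related genes, and markers of germ and somatic cells, in Tug1-/- over wild type (left) and rescue over wild type (right), with 1.2-fold as dotted lines. The 10 genes centre on 0.027 and 0.0098, elongating spermatid markers on -0.11 and -0.12, and Sertoli cell markers on 0.37 and 0.55.

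The profile of the 10 genes across the 15 group means (3 of testes and 2 of each other organ, genes not listed in an organ set to 0) was one that many genes of the testis shared. Among 10362 other genes of at least 10 TPM in wild-type testes, 1583 had a Pearson correlation above 0.99 with the mean log2(TPM + 1) profile of the 10. The 3 most alike were the lincRNA Gm26884, Catsperg1, a subunit of the sperm calcium channel, and the processed pseudogene Gm18622, with correlations between 0.998 and 0.999. Catsperg1 had 132, 131 and 141 TPM in wild-type, Tug1-/- and rescue testes. The 15 means share the contrast of testes with all other organs, and how much of the correlation rests on it was not measured.

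Outside the testes 4 of the 10 genes stayed under 1 TPM in every organ, and 6 reached it in at least 1 organ. Spaca7 and Spam1 were listed in none of the 6 other organs and Spaca3 in eyes and heart only, with at most 0.171 TPM. Acr reached 0.812 TPM in wild-type eyes, so that the testes level was 377 times higher, and Izumo1 reached 0.934 TPM in wild-type spleen (1.23 TPM in Tug1-/-). The authors' table leaves out a gene where no replicate of the organ reached 3 reads.

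Acrbp was the highest of the 10 outside the testes. Wild-type prostate held 79.9 TPM, which is 37.3% of the wild-type testes level, and Tug1-/- prostate held 55.2 TPM, behind an average of 2975 normalised reads per prostate library. It had 13.3 and 10.6 TPM in eyes, 7.47 and 7.47 TPM in spleen, and 1.22 and 1.47 TPM in heart. Acrv1 (7.56 and 7.05 TPM) and Zpbp2 (7.87 and 8.21 TPM) were likewise present in prostate, with 351 and 177 normalised reads, while Zpbp stood there at 0.206 and 0.251 TPM and Acr, Spaca3, Spaca7 and Spam1 were not listed. Most spermatid markers were near 0 or not listed in the same organ. Prm1 had 0.280 TPM in wild-type prostate, Tnp1 and Tnp2 were not listed, and 3 of the 10 elongating spermatid markers were listed with a sum of 4.31 TPM, most of it Gapdhs at 3.49 TPM. Of the 4 epididymal markers, Crisp1 stood at 12.7 TPM in wild-type prostate, while Adam7, Lcn5 and Rnase10 were not listed there. The part of RNA from other tissue in these values was not tested.

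In prostate, 1 of the 3 genes of the 10 with at least 1 TPM passed 1.2-fold lower in Tug1-/- (Acrbp, log2 ratio -0.53), against 5.91% of all genes. In spleen it was 2 of 5 (Spaca1 and Zpbp), against 19.0% of all genes, and in eyes 2 of 3 (Spaca1 and Acrbp), against 15.8%. Spaca1 had 2.02 TPM in wild-type spleen against 1.01 TPM in that of Tug1-/- mice, and 1.78 and 1.03 TPM in eyes, on 35.2 and 30.5 normalised reads per library. Zpbp had 3.01 and 2.12 TPM in spleen. In these 2 organs the median log2 ratio of all genes was itself below 0, at -0.10 in spleen and -0.098 in eyes. Centred on these medians, Acrbp in eyes and Zpbp in spleen no longer passed 1.2-fold lower, and Izumo1 in spleen passed 1.2-fold higher. With 2 or 3 mice per group and no spread between them, these differences were not tested.

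**Figure D4:**
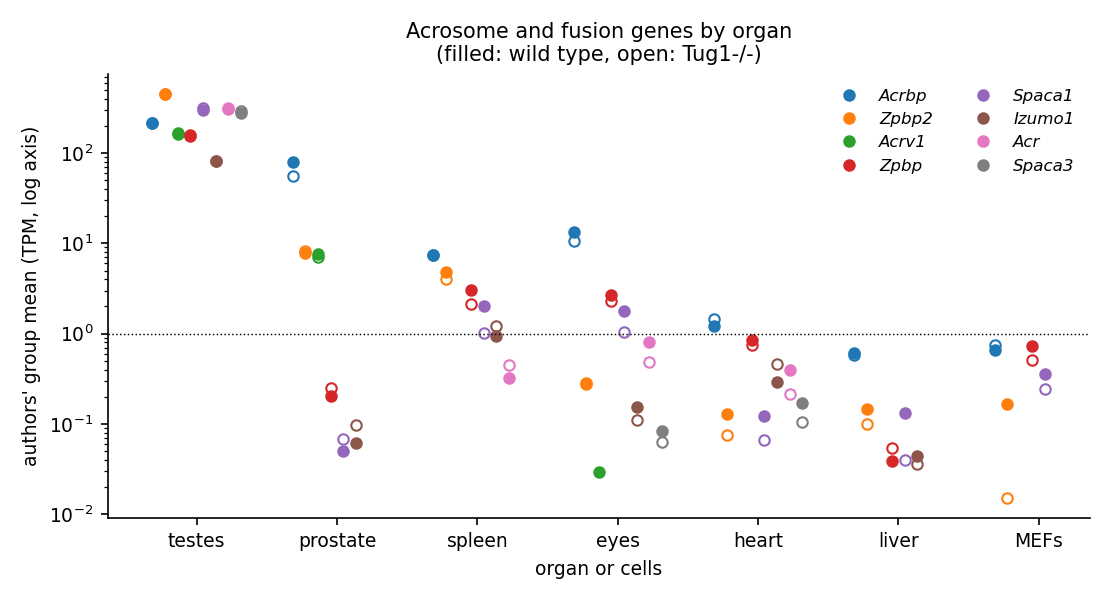
Mean expression (authors' group mean, TPM, log axis) of 8 of the 10 genes in testes, prostate, spleen, eyes, heart, liver and MEFs of wild-type (filled) and Tug1-/- (open) mice, with 1 TPM as a dotted line. Spaca7 and Spam1 are left out since they were listed only in testes, as is the Tug1-/- value of Acrv1 in eyes, which is listed at 0. Acrbp in prostate (79.9 TPM) is the one value outside the testes above 20 TPM in wild type.

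Parts of some genes overlap others in the GENCODE vM21 annotation of the same build. Of the 3277 exonic bases of Acrbp, 975 are shared with Gm44597 on the same strand, which had 1.83 TPM in wild-type testes and 1.18 TPM in wild-type prostate. Izumo1 shares 654 of 2992 exonic bases with Rasip1 on the same strand (3.24 TPM in wild-type testes and 10.0 TPM in spleen). On the opposite strand Zpbp shares 223 bases with Spata48 (89.5 TPM in wild-type testes) and Spaca7 132 bases with D630011A20Rik (2.63 TPM). Acrbp shares 90 bases with 4930557K07Rik, which had 26.4 TPM in wild-type testes, 4.90 TPM in prostate and 7.49 TPM in spleen. The sources used here do not say if counting used the strand, so reads from these stretches cannot be assigned with certainty. The other 6 genes overlap no exon of another gene.

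Of the 10 genes 3, Zpbp, Spaca3 and Zpbp2, lie on chromosome 11 with Tug1, and their starts are 7.81, 77.2 and 94.9 Mb from the start of Tug1. Their log2 ratios for Tug1-/- over wild type were 0.02, 0.07 and 0.02, within the range of the 7 genes on other chromosomes.

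Promoter windows of 300 bases (250 before and 50 after the RefSeq start, GRCm38.p6) were found for 9 of the 10 genes, with 11 windows in all. They were searched on both strands for the cAMP response element TGACGTCA, the site known for CREM and its relatives, and for its part TGACGT. The full element was in 1 window (Izumo1), beside 1.79% of all 32851 windows, and the part in 2 (Izumo1, within the full element, and Acrbp), beside 7.51%. Both are shown because CREM is the regulator known for postmeiotic genes. The capitals mark the element, and each 30-base stretch is on the plus strand, at chr7:45621704-45621733 for Izumo1 and chr6:125049897-125049926 for Acrbp.
Izumo1: ctgccaccctaTGACGTCAcgatgggatgg
Acrbp: cctcaccttctgTGACGTagcagccgcgcc
The element begins 96 bases before the start of Izumo1 and the part 18 bases before the RefSeq start of Acrbp, which itself lies 238 bases inside the gene as the authors' table gives it. TATAAA was in 1 of the 11 windows (Spaca7) and 13.6% of all, CCAAT in 2 (Izumo1 and Zpbp) and 37.4% of all, and GTTGCCA, known from sites of RFX factors, in 0 and 4.38% of all. A match describes letters in a window and is no evidence of binding. Izumo1 and Acrbp, which hold TGACGT, had log2 ratios of 0.02 and -0.01 for Tug1-/- over wild type.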

How the data were processed

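Poly(A) RNA libraries (TruSeq RNA v2) had been sequenced as read pairs. Per the labels and the study's methods, the authors used CASAVA 1.8.2, aligned reads to mm10 (GRCm38) with STAR, counted uniquely mapped reads on GENCODE vM16 genes with featureCounts, dropped a gene where no replicate reached 3 reads, and deposited the mean TPM of each group. For organs other than testes the deposited table also holds an average of normalised read counts over both genotypes. The authors' columns of fold changes, statistics, p-values, adjusted p-values and significance marks (18 in all, from DESeq2) were not used.

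From the deposited means, log2 ratios were computed with a pseudocount of 1 TPM over all genes with at least 1 TPM in either group, and 1.2-fold was taken as the size that counts. No table of single libraries was used, so no test was run. The steps were tested on simulated means. Of the 52 samples, 46 lie behind the means used. F1 hybrid testes (6 samples) and brain were not used here. The 10 genes, the 14 other lists and the motifs were chosen with earlier results of these data known. Named genes were the 10, any of the 49 related genes past 1.2-fold between wild-type and Tug1-/- testes, the 3 most alike in profile and Tug1, and others are marked where they occur or stand as examples of a list. Python 3.11.15 was used with numpy 2.4.6, pandas 2.3.3 and matplotlib 3.10.9.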

Additional observations from a re-analysis of the deposited data

How the results depend on the processing

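In the 3 testes comparisons 0 of the 10 genes passed the fold under each alternative tried: thresholds of 1.1-fold and 1.5-fold, no minimum, minima of 10 and 50 TPM (the latter chosen after seeing the data), protein-coding genes alone, no pseudocount, a pseudocount of 0.1 TPM, a total without the 100 highest genes, and centring on all genes or on spermatid markers. Shifts of at least 0.1 in log2 arose when ratios were centred on the elongating spermatid markers, which were themselves lower. The median of the 10 was then 0.139 for Tug1-/- over wild type and 0.126 for rescue over wild type, with all 10 higher in both, and no single ratio exceeded 0.23. Under the other alternatives the 3 testes medians stayed between -0.025 and 0.027. The number of all genes past the fold depended on the setting, as it must when the threshold or the genes tested change. In the order Tug1-/- over wild type, rescue over Tug1-/- and rescue over wild type, it was 2960, 2274 and 3795, against 6799, 5933 and 8795 at 1.1-fold, 819, 522 and 1074 at 1.5-fold, 799, 408 and 1057 with a minimum of 10 TPM, 181, 69 and 224 with 50 TPM, and 1758, 911 and 2221 among protein-coding genes. For the other organs alternatives were chosen after seeing the data. The number of the 10 past 1.2-fold in eyes went from 2 to 1 when ratios were centred on all genes of the organ, and in heart from 0 to 1 (Acrbp, higher) with no pseudocount. In spleen it went from 2 to 3 with no pseudocount or 0.1 TPM, Izumo1 passing higher, and in prostate it stayed 1 (Acrbp). Leaving out replicates was not run, since only group means were used. No paired analysis was possible because the columns carry no replicate numbers.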
